A study of Mus musculus with 15 samples.

Results

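Tetraspanins are small membrane proteins with 4 passes through the lipid bilayer. The 10 genes described here are *Cd9*, *Cd63*, *Cd81*, *Cd82*, *Cd151*, *Cd37*, *Tspan3*, *Tspan4*, *Tspan6* and *Tspan9*. They were chosen by gene symbol, with earlier results of these data known. The count table of the cultured mouse retinal pigment epithelium (mRPE) cells held 9 of them among 20910 genes, and the table of the RPE/choroid tissue held all 10 among 25038. *Cd37* in mRPE cells was not analysed here. The mRPE cells were RPE cells pooled from C57/BL6J mice aged 8 to 12 weeks and immortalized with the HPV E6/E7 genes. For editing, the study's methods describe Cas9 given by lentivirus, then transfection with a guide RNA to exon 5 of *Prom1* or a scrambled guide RNA. The labels give a WT line (4 libraries) and the lines mRPE Prom1KO 22 (KO22, 3 libraries) and mRPE Prom1KO 26 (KO26, 2 libraries). The label of the WT line does not say whether it carries Cas9 or received the scrambled guide RNA. The study set both KO26 libraries aside as outliers of a principal component analysis, and they are kept here by their label. WT was seen through 1 line and the edit through 2 lines, each compared by itself, so that within a comparison an effect of the *Prom1* edit and any other difference between lines cannot be told apart. The RPE/choroid libraries were 3 labelled WT and 3 labelled Prom1_KO, the latter from *Prom1* fl/fl mice carrying RPE65-Cre and gavaged with tamoxifen, which directs the deletion to RPE cells and not to the other cells of the choroid. Whether the WT mice received tamoxifen or carried Cre, and the age of these animals, were not given in the sources used here. The libraries of a line or genotype are not stated to be separate cultures, so p-values measure the spread between libraries, and in bulk RNA fewer cells of a type and less RNA per cell cannot be told apart.

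Tetraspanins bind each other and a set of partner receptors laterally in the membrane, building patches that organise integrins, immunoglobulin superfamily proteins and metalloproteases. *Cd9*, *Cd63* and *Cd81* encode the members that are most used as markers of extracellular vesicles. CD63 cycles through late endosomes and lysosomes and also takes part in sorting the melanosome protein PMEL in pigment cells. CD82 is known as a suppressor of metastasis, CD151 as a partner of laminin-binding integrins, CD37 as a leukocyte protein, and TSPAN4 as a component of migrasomes. TSPAN3, TSPAN6 and TSPAN9 are less studied members that many tissues express. Prominin-1, the product of *Prom1*, also lies in curved membrane but belongs to another family.

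The family is recognised by a Cys-Cys-Gly sequence in its large extracellular loop. The coding stretch around it is shown for the 5 members whose mRNA passed the adjusted p limit between KO22 and WT, with the 9 bases of the Cys, Cys and Gly codons in capitals, from the canonical transcripts of GENCODE vM39 on GRCm39.
Cd9: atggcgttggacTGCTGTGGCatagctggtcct
Cd63: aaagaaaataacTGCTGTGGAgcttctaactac
Cd81: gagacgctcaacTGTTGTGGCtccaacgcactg
Cd82: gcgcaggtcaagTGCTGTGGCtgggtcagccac
Tspan6: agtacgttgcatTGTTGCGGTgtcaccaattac
Each of these stretches of 33 bases is coding exon sequence joined across a splice junction, over chr6:125439140-125439295 on the minus strand for *Cd9*, chr10:128747927-128748056 on the plus strand for *Cd63*, chr7:142620084-142620424 on the plus strand for *Cd81*, chr2:93251074-93252177 on the minus strand for *Cd82* and chrX:132795785-132796189 on the minus strand for *Tspan6*. The members shared a feature of gene structure that the choice of symbols did not use: in all 10 the junction lay exactly 6 bases before the first Cys codon. That codon was number 150 of 226 in *Cd9*, 145 of 238 in *Cd63*, 156 of 236 in *Cd81*, 149 in *Cd82* and 153 of 245 in *Tspan6*. The letters differed at the synonymous last positions of the codons, *Cd9* and *Cd82* sharing TGCTGTGGC, *Cd81* having TGTTGTGGC, *Cd63* TGCTGTGGA and *Tspan6* TGTTGCGGT.

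The promoters of *Cd9* and *Cd81* are shown because these members moved furthest, in opposite directions, between KO22 and WT. They run from 250 bases before to 50 bases after the start, were taken from RefSeq on GRCm38.p6 (chr6:125494711-125495010, minus strand; chr7:143052500-143052799, plus strand) and carry in capitals the matches, on either strand, to the GC box GGGCGG, the CCAAT box CCAAT, the TATA box TATAAA and the AP-1 site TGANTCA.
Cd9: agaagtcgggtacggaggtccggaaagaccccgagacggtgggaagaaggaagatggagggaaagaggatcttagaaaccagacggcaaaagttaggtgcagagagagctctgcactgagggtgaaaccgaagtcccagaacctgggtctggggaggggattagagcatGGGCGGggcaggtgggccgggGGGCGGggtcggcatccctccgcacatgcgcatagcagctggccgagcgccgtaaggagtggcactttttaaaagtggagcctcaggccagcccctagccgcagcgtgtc
Cd81: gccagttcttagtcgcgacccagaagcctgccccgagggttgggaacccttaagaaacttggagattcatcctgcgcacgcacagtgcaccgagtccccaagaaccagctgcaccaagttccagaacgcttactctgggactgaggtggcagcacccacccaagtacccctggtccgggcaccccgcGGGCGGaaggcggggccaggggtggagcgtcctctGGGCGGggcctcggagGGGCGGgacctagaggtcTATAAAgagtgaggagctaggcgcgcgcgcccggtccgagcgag
Both promoters held more CG dinucleotides than the median of 7 over 32851 mouse promoters of this length, with 18 in *Cd9* and 23 in *Cd81*. These numbers lay at percentiles 70.3 and 78.5, and 34.6% of the promoters held 15 or more. The *Cd9* promoter held 2 GC boxes and none of the other motifs. The *Cd81* promoter held 3 GC boxes and 1 TATA box. Of all promoters, 35.7% held a GC box, 37.4% a CCAAT box, 13.6% a TATA box and 7.81% an AP-1 site, so these letters are common and are given as a description.

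Total counts ran from 8076188 to 27537863 in the 9 mRPE libraries and from 48154444 to 61766179 in the 6 tissue libraries, and the members were read from 46 counts (*Cd37*, tissue) to 12978 counts (*Cd63*, mRPE). The mRPE libraries came in sequencing batches 1 and 2, batch 1 holding 1 library of each line. *Prom1* in mRPE cells was not analysed here, so the edit was not checked by its mRNA in these KO22 or KO26 libraries. Each mRPE comparison takes the lines by their labels. For its knockout lines the study reports a Western blot without Prom1 protein, less *Prom1* transcript by qPCR and a check of the genomic DNA. In tissue *Prom1* was at 48.7, 49.6 and 53.3 CPM (counts scaled to a common library total) in WT. The libraries labelled Prom1-KO were at 49.9, 48.1 and 35.5 CPM. The log2 difference was -0.18 ± 0.16 (SE, edgeR quasi-likelihood test, adjusted p = 0.824), so the test did not show a loss of *Prom1* mRNA. The bulk tissue holds other cells besides the RPE cells to which the deletion is directed. The paper describes *Prom1* as lower in RPE than in the photoreceptor-rich retina, and photoreceptor markers were read in these libraries. This value therefore cannot decide whether *Prom1* was deleted in the RPE cells. Of 11 RPE markers only 4 were in the mRPE table (*Best1*, *Rdh5*, *Mitf* and *Pmel*, summing to 8.17 to 40.0 CPM), and the defining *Rpe65*, *Rlbp1*, *Lrat* and *Ttr* were not among the genes analysed. The 5 fibroblast markers in the mRPE table summed to 12800 to 17500 CPM in WT, 5560 to 8670 CPM in KO22 and 19900 to 21800 CPM in KO26. The 6 mural cell markers summed to 629 to 1750, 183 to 276 and 934 to 1900 CPM. *Acta2* held most of the mural sum, with means of 881, 178 and 1320 CPM. Not every marker followed its sum. In WT and KO22, *Dcn* had means of 828 and 1190 CPM, while the other fibroblast means were lower in KO22. *Cspg4*, a mural marker, had means of 6.32 and 23.0 CPM. The 4 endothelial markers in the mRPE table summed to 153 to 236 CPM in WT, 3.41 to 4.77 CPM in KO22 and 56.3 to 73.8 CPM in KO26. *Kdr* made up nearly all of the WT sum. In WT and KO22, *Plvap* had means of 0.297 and 1.17 CPM, *Tek* of 1.07 and 0.19 CPM and *Pecam1* of 0.438 and 0.37 CPM. *Csf1r*, the sole leukocyte marker in the mRPE table, was at 3.59 to 6.31 CPM. Marker levels vary between the lines, and their part in the tetraspanin values was not tested.

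In WT mRPE cells, *Cd81* and *Cd63* were by far the most abundant members once the CPM was divided by the length of the exons in kb. *Cd81* stood at 75.8 ± 8.28 CPM per kb and *Cd63* at 75.7 ± 21.5 CPM per kb (SD, n = 4), with overlapping ranges. *Tspan4* (18.7 ± 1.54), *Cd9* (17.1 ± 4.08) and *Tspan3* (15.9 ± 1.85 CPM per kb) followed, apart from the genes above and below them and with ranges that overlapped among these 3. *Tspan9* (6.93 ± 1.26) and *Cd151* (4.68 ± 1.40 CPM per kb) also overlapped, and *Tspan6* (2.39 ± 0.227) and *Cd82* (2.16 ± 0.173 CPM per kb) were last and overlapped.

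KO22 cells had a different order. *Cd9* came first at 72.4 ± 25.3 CPM per kb (SD, n = 3), overlapping *Cd63* at 60.8 ± 7.25, and *Cd81* had dropped to 39.2 ± 5.97 CPM per kb. In KO26 cells the order was that of WT from *Cd81* (84.6 ± 8.67 CPM per kb, SD, n = 2) through *Cd63* (82.4 ± 41.5), *Tspan4*, *Cd9*, *Tspan3* and *Tspan9* to *Cd151*, with *Cd82* ahead of *Tspan6*. As a share of the members' summed CPM per kb, *Cd9* made up 6.56 to 8.28% in WT, 26.0 to 38.4% in KO22 and 6.75 to 10.1% in KO26. *Cd81* made up 31.8 to 36.8%, 16.7 to 17.5% and 29.0 to 38.9%, and *Cd63* 31.1 to 39.0%, 26.3 to 27.6% and 26.3 to 35.8%. The *Cd9* share was above the *Cd81* share in all 3 KO22 libraries and in none of the 6 libraries of the other lines.

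**Figure D1:**
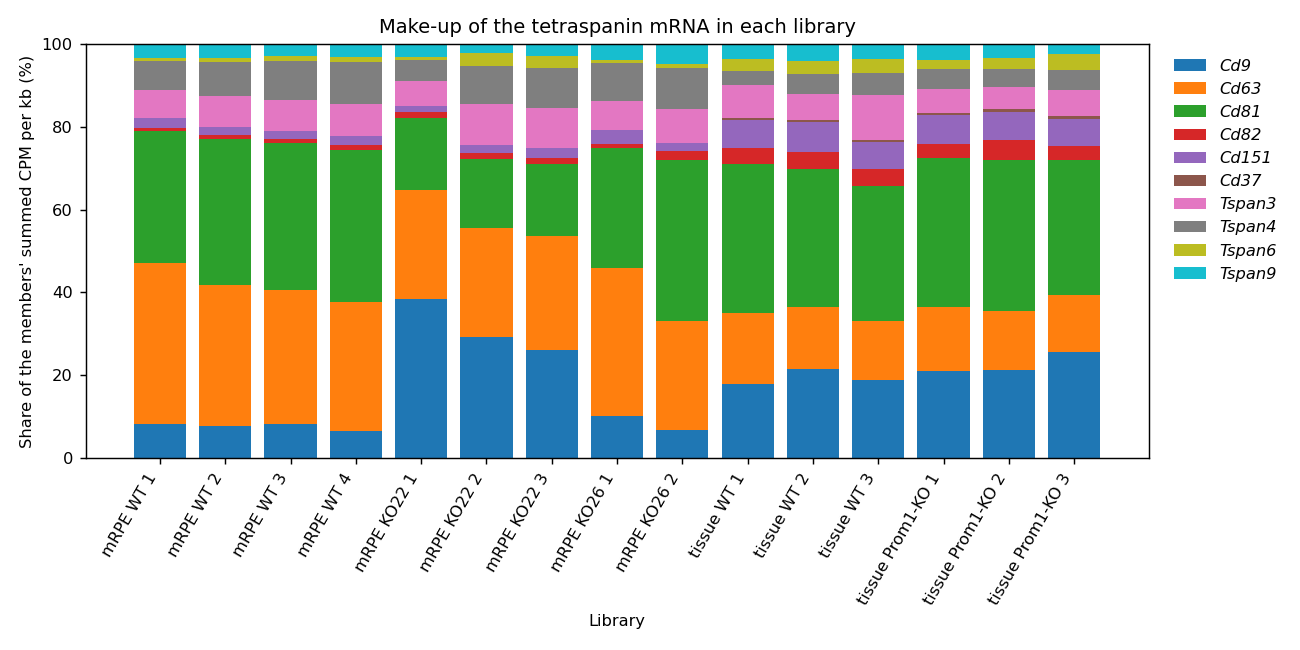
Stacked bars of each tetraspanin's share (%) of the members' summed CPM per kb, 1 bar per library of mRPE WT, KO22 and KO26 and of RPE/choroid WT and Prom1-KO. The *Cd9* segment is 26.0 to 38.4% in the 3 KO22 libraries and at most 10.1% in the other mRPE libraries.

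The comparison of KO22 with WT asked how *Prom1* loss changes the transcriptome of mRPE cells. *Cd9* rose about 4-fold and *Cd81* fell to about 50% of the WT level, *Cd82* and *Tspan6* rose less, and *Cd63* fell slightly, by the adjusted p alone, which it missed when any of 6 libraries was left out. Counting genes past an adjusted p of 0.05 and an absolute log2 fold change of 1.2, 1 of the 9 members was higher and 0 were lower, where 11.4% and 13.8% of all 20455 genes tested were higher and lower. By the adjusted p alone, 3 members were higher and 2 lower, with 26.9% and 26.1% of all genes, so the number of members past each limit was near what all genes showed. The members' median log2 fold change was -0.08, and that of all genes -0.03. The count of 0 lower members was also 0 in a DESeq2 test, and 5 members had an unadjusted p under 0.05.

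*Cd9*, whose protein organises cell adhesion and fusion, was at 48.4, 33.2, 35.5 and 27.9 CPM in the 4 WT libraries and at 215, 133 and 114 CPM in the 3 KO22 libraries. Every KO22 library lay above every WT library. The log2 fold change was 2.00 ± 0.12 (SE; edgeR quasi-likelihood test, adjusted p = 2.75e-06), and it was 2.14 within batch 1 and 1.92 within batch 2. *Cd9* lies on the minus strand of chromosome 6 and shares 11.4% of its exon bases with *Gm26728* on the opposite strand. *Gm26728* was at 6.17 to 8.86 CPM in WT and 24.1 to 36.8 CPM in KO22 (log2 fold change 1.98 ± 0.13, adjusted p = 3.97e-06). Since the strand used in counting was not given in the sources used here, reads from the shared bases cannot be told apart.

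*Cd81* was at 332, 265, 269 and 277 CPM in WT and at 173, 135 and 134 CPM in KO22. Again the groups did not overlap, here with KO22 below. The log2 fold change was -0.99 ± 0.10 (adjusted p = 4.13e-05), within the fold limit of 1.2, and was -0.93 within batch 1 and -1.0 within batch 2. *R74862*, which lies opposite to *Cd81* and covers 8.2% of its exon bases, was at 62.3 to 73.7 CPM in WT and 28.4 to 37.6 CPM in KO22 (-1.03 ± 0.12 on the log2 scale, adjusted p = 7.97e-05). The raw counts of *Cd9* were 0.101 to 0.146 of those of *Cd81* in WT and 0.848 to 1.24 of them in KO22, a ratio within each library that no scaling between libraries touches.

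*Cd82* was at 8.46, 9.53, 10.3 and 9.55 CPM in WT and at 16.6, 14.7 and 14.6 CPM in KO22. The groups did not overlap, and the log2 fold change was 0.70 ± 0.15 (adjusted p = 0.00327). *Cd82* shares no exon bases with another gene in the annotation. *Cd63*, the endosomal member, was at 516, 324, 311 and 298 CPM in WT and at 331, 270 and 272 CPM in KO22. The KO22 library of batch 1 lay above 3 of the WT libraries, all of batch 2, so the groups overlapped. The log2 fold change was -0.33 ± 0.12 (adjusted p = 0.0416), it was -0.64 within batch 1 and -0.20 within batch 2, and without the WT library of batch 1 it was -0.21 (adjusted p = 0.0567). It also missed the adjusted p limit without the KO22 library of batch 1 (-0.19, adjusted p = 0.0935), without any 1 of the 3 WT libraries or KO22 replicate 2 (-0.41 to -0.34, adjusted p from 0.05 to 0.0856), and with no batch term (-0.32, adjusted p = 0.238).

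*Tspan6* was at 7.39, 5.96, 6.48 and 7.10 CPM in WT and at 6.31, 18.4 and 16.6 CPM in KO22. Both KO22 libraries of batch 2 lay above all WT libraries, while the KO22 library of batch 1 lay within the WT range. The log2 fold change was 0.97 ± 0.28 (adjusted p = 0.0165), made up of -0.21 within batch 1 and 1.36 within batch 2. Leaving out the KO22 library of batch 1 gave 1.44, and the adjusted p limit was also passed without the WT library of that batch, while leaving out any 1 of the 5 libraries of batch 2 gave 0.73 to 0.93 and missed the limit (adjusted p from 0.0571 to 0.0893). The rise of *Tspan6* was therefore seen in the libraries of batch 2 and not in that of batch 1.

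The other 4 members did not pass. Their fitted log2 differences from WT were 0.24 ± 0.14 for *Tspan3* (adjusted p = 0.163), -0.23 ± 0.11 for *Tspan9* (adjusted p = 0.122), -0.14 ± 0.21 for *Cd151* (adjusted p = 0.603) and -0.08 ± 0.14 for *Tspan4* (adjusted p = 0.641). For *Tspan3* the batches differed in sign, with -0.24 in batch 1 and 0.44 in batch 2, where KO22 (171 and 161 CPM) lay above WT (120 to 125 CPM). *Cd151* was at 18.6 to 34.8 CPM in WT and 18.9 to 26.0 CPM in KO22, and *Tspan4* at 51.7 to 62.9 and 41.8 to 62.3 CPM, so both overlapped. These neighbours on chromosome 7 share 23.7% and 33.1% of their exon bases with genes on the opposite strand, among them *Polr2l* for both.

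**Figure D2:**
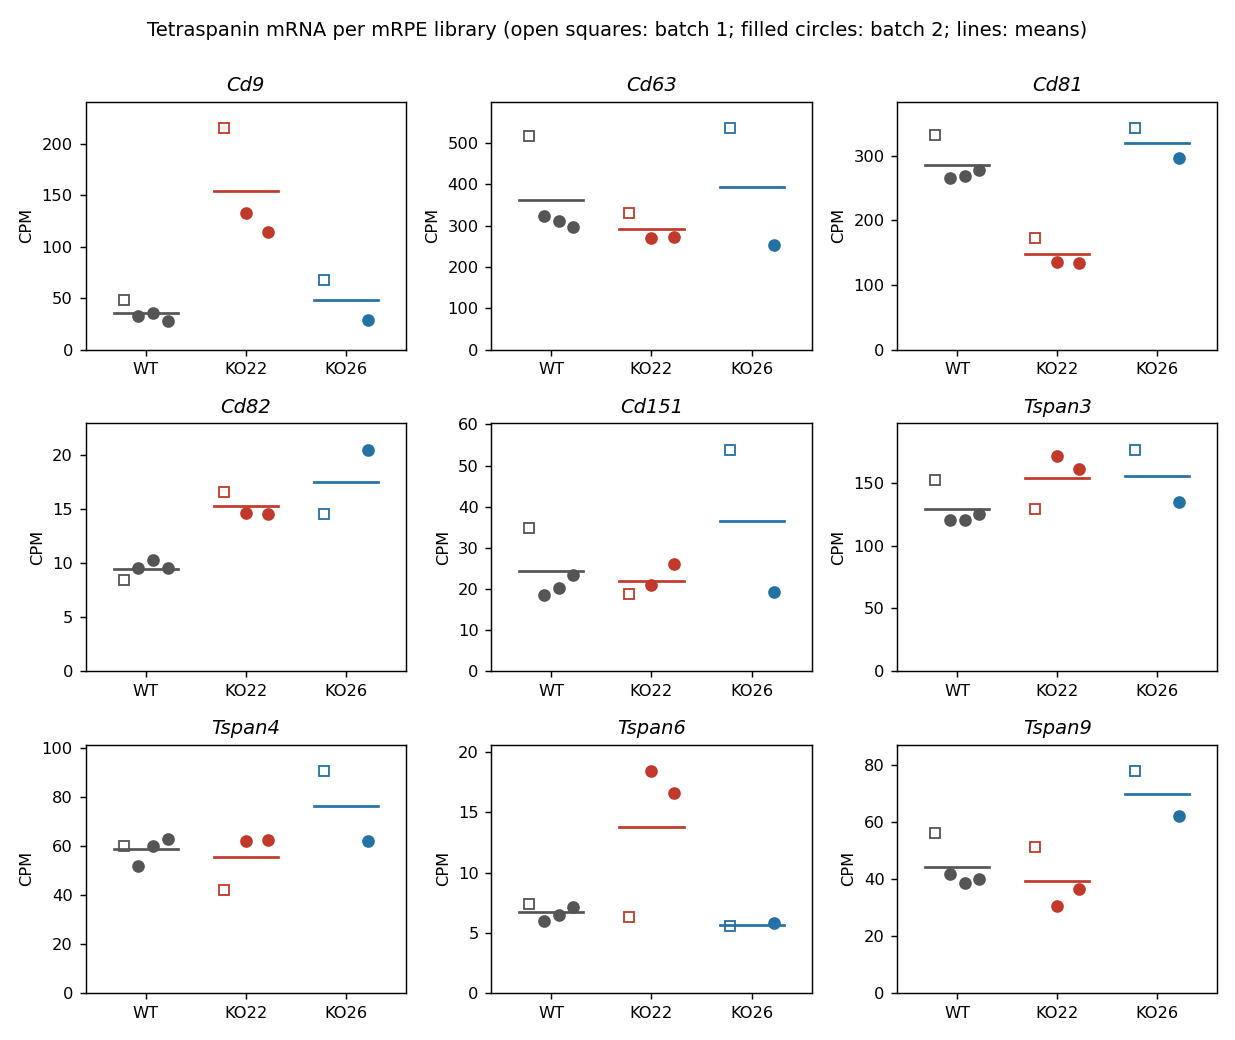
CPM (TMM scale, linear axis from 0) of 9 tetraspanins in each mRPE library of WT, KO22 and KO26, with open squares for sequencing batch 1, filled circles for batch 2 and lines at the group means. The KO22 points of *Cd9* (114 to 215) lie above and those of *Cd81* (134 to 173) below all points of the other lines, and *Tspan6* is raised only in the 2 batch 2 libraries of KO22.

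The comparison of KO26 with WT showed far fewer changes. No member passed both limits in either direction (0 higher and 0 lower in edgeR and in DESeq2). In DESeq2, 360 of all 20737 genes tested were higher and 269 lower under both limits. In edgeR, 1.21% of these genes were higher and 0.719% lower. By the edgeR adjusted p alone 1 member was higher and 0 lower, with 2.36% and 1.13% of all genes, and 2 members had an unadjusted p under 0.05. The member that passed was *Cd82*, at 14.6 and 20.5 CPM in KO26, both above the WT range of 8.46 to 10.3 CPM. Its log2 fold change was 0.91 ± 0.19 (adjusted p = 0.028), with 0.75 within batch 1 and 1.03 within batch 2. It passed the adjusted p limit in 9 of 17 fits and not in the rest, among them the fit without a batch term (adjusted p = 0.0664), and it missed the limit without any 1 of the WT libraries, either KO26 library or KO22 replicate 2 (log2 0.65 to 1.11, adjusted p from 0.0542 to 0.125).

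*Tspan9* was at 77.6 and 62.0 CPM in KO26 and at 38.5 to 55.9 CPM in WT. Both KO26 libraries lay above all WT libraries, with a log2 fold change of 0.55 ± 0.14 that missed the limit (adjusted p = 0.0543) and passed it in DESeq2 (adjusted p = 0.0198). *Cd9* in KO26 was at 67.4 CPM in batch 1 and 28.9 CPM in batch 2, a log2 fold change of 0.12 ± 0.17 (adjusted p = 0.728). *Cd81* was at 342 and 296 CPM, with 0.09 ± 0.12 (adjusted p = 0.725). *Cd63* was at 535 and 254 CPM (-0.09 ± 0.17, adjusted p = 0.796), and *Cd151*, *Tspan3*, *Tspan4* and *Tspan6* had log2 fold changes of 0.38, 0.23, 0.39 and -0.16 with adjusted p from 0.329 to 0.832. With 2 libraries in batches that differ, these values carry wide errors, and a p that missed the limit does not show that KO26 and WT were alike.

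The lines KO22 and KO26, which carry the same targeted gene, were compared directly. *Cd9* was higher in KO22 by 1.87 ± 0.19 on the log2 scale (adjusted p = 5.3e-05), with 1.67 within batch 1 and 2.07 within batch 2. *Cd81* was lower in KO22 (-1.07 ± 0.12, adjusted p = 0.000124), with -0.98 and -1.13 within the batches, and *Tspan9* also (-0.77 ± 0.14, adjusted p = 0.00214). *Tspan6* was higher by 1.14 ± 0.37 (adjusted p = 0.0356), with 0.17 in batch 1 and 1.52 in batch 2, and missed the adjusted p limit without any 1 of the batch 2 libraries or the KO26 library of batch 1 (0.91 to 1.36, adjusted p from 0.0508 to 0.217). *Cd82* differed by -0.20 ± 0.20 (adjusted p = 0.463), both lines being above WT. Under both limits 1 member was higher and 0 lower in KO22 (0 lower in DESeq2 also; 4 members had an unadjusted p under 0.05), against 7.56% and 10.7% of all genes, and by the adjusted p alone 2 were higher and 2 lower, against 16.3% and 18.1%. The comparisons of each line with WT share the WT libraries.

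**Figure D3:**
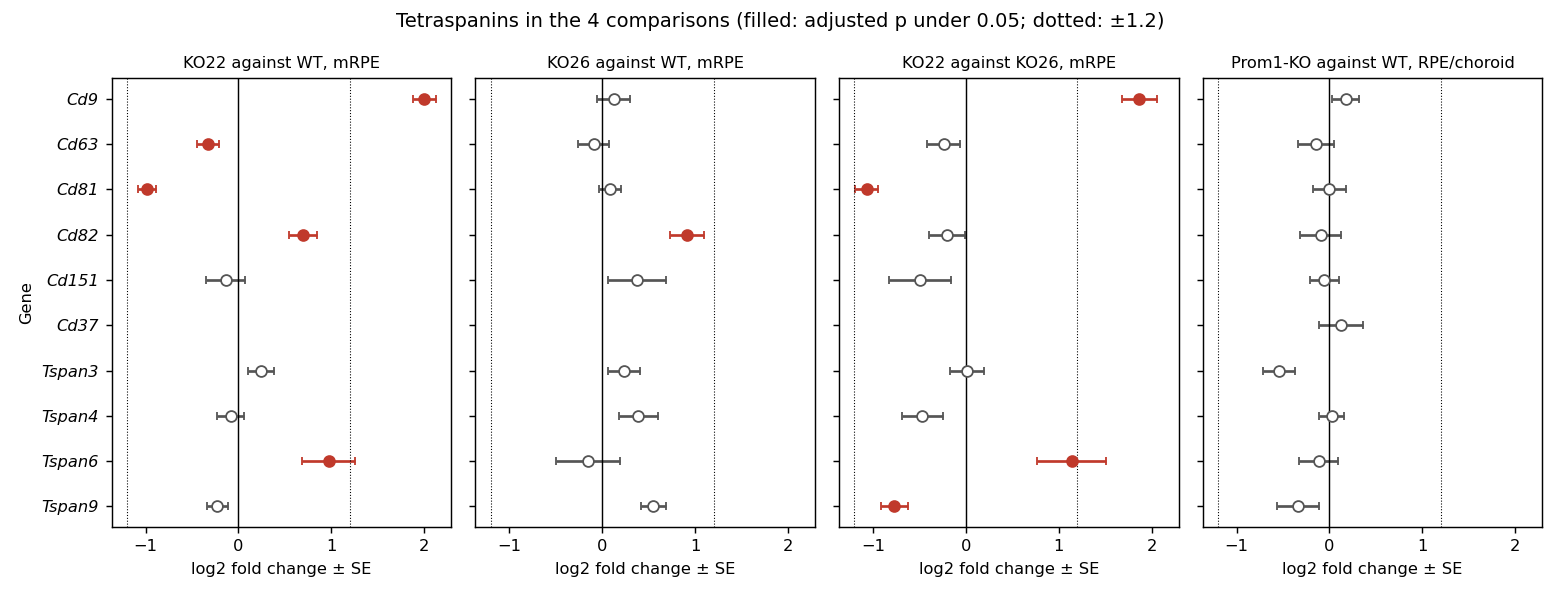
Log2 fold change with its SE (horizontal bars) of each tetraspanin in the 4 comparisons, filled where the adjusted p was under 0.05, with dotted lines at ±1.2. *Cd9* stands at 2.00 and *Cd81* at -0.99 in KO22 against WT, both lie near 0 in KO26 against WT, and no member of the RPE/choroid panel is filled.

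The wider family was described by 21 further tetraspanin genes, of which 16 were in the mRPE table. In KO22 against WT, 5 rose and 3 fell past both limits, where 11.4% and 13.8% of all genes did, and 8 did not. The median log2 fold change was -0.21 beside -0.03 for all genes. It includes genes read from few counts, such as *Tspan32* (2 to 12 per WT library) and *Upk1b* (5 to 11). *Tspan14*, which guides the metalloprotease ADAM10, was at 6.10 to 10.3 CPM in WT and 22.4 to 27.8 CPM in KO22 (log2 fold change 1.69 ± 0.15, adjusted p = 1.62e-05). *Tspan12*, a coreceptor of norrin signalling in retinal vessels, was at 0.274 to 0.834 CPM in WT and 4.66 to 5.53 CPM in KO22 (3.17 ± 0.30, adjusted p = 2.77e-05). It was read from 4 to 21 counts per WT library. *Tspan11* (1.50 ± 0.16) and *Cd53* (2.96 ± 0.41), the latter a leukocyte tetraspanin read from 12 to 63 counts per KO22 library, also rose. *Tspan2*, the remaining gene that rose, lies outside the naming rule here and had a log2 fold change of 1.64 ± 0.49 (adjusted p = 0.0187). It was read from 2 to 13 counts per WT library and 18 to 29 per KO22 library.

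*Tspan18* fell from 25.6 to 34.4 CPM in WT to 1.71 to 3.20 CPM in KO22 (log2 fold change -3.82 ± 0.25, adjusted p = 3.61e-06). In KO26 it was at 108 and 120 CPM, 1.92 ± 0.21 above WT (adjusted p = 0.0029), so that the lines lay on opposite sides of WT and differed by -5.71 ± 0.26 (adjusted p = 8.21e-07). *Tspan13* had 37 to 479 counts in each WT library and 2 counts in all over the 3 KO22 libraries (adjusted p = 6.93e-06). Its pooled level was 217-fold lower than in WT, with an exact 95% Poisson interval of 59.9 to 1790 for counting error of the KO22 count only. The WT library of batch 1 held 479 of the 612 WT counts, and without it the pooled level was 77.6-fold lower, with an interval of 21.5 to 641, a setting chosen after seeing the data. *Rom1*, a photoreceptor disc rim protein, was at 0.686 to 1.51 CPM in WT and 0.233 to 0.530 CPM in KO22 (-1.35 ± 0.42, adjusted p = 0.0223). Its KO22 libraries held 3 to 11 counts each. In KO26 against WT, *Tspan18* was the 1 of the 16 that passed, under both limits and by the adjusted p alone. Of all genes, 1.21% were higher and 0.719% lower under both limits. In DESeq2 2 of the 16 passed the adjusted p alone, and in edgeR 6 had an unadjusted p under 0.05. The median was -0.42 beside 0.03 for all genes.

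**Figure D4:**
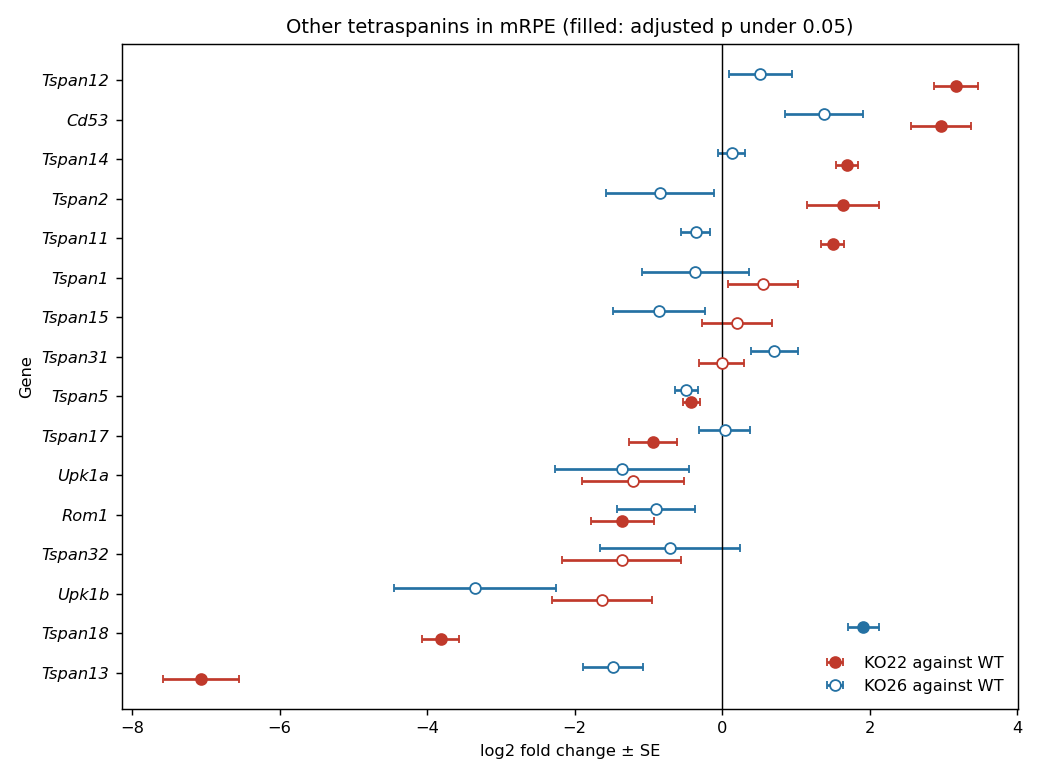
Log2 fold change with its SE of 16 other tetraspanin genes in KO22 (red) and KO26 (blue) against WT mRPE, filled where the adjusted p was under 0.05. *Tspan18* is at -3.82 in KO22 and 1.92 in KO26, and the fitted value of *Tspan13* in KO22 rests on 2 counts.

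Among 21 partners of tetraspanins (integrins, immunoglobulin superfamily proteins, metalloproteases and growth factor receptors), 18 were tested in mRPE. In KO22 against WT, 5 rose and 2 fell past both limits, where 11.4% and 13.8% of all genes did, and 10 rose and 4 fell by the adjusted p alone, beside 26.9% and 26.1% of all genes. The median log2 fold change was 0.83, and that of all genes -0.03. *Itga6*, the laminin-binding integrin subunit with which CD151 pairs, was at 8.76 to 16.2 CPM in WT and 133 to 139 CPM in KO22 (3.54 ± 0.16, adjusted p = 6.62e-07). *Met*, the HGF receptor, rose by 2.07 ± 0.11, *Cd44*, the hyaluronan receptor, by 1.68 ± 0.10, and *Icam1*, an adhesion receptor of leukocytes, by 3.81 ± 0.36 (adjusted p from 9.8e-07 to 2.93e-05). *Egfr* fell by 2.44 on the log2 scale (SE 0.15, adjusted p = 2.7e-06). The tight junction gene *Cldn1*, at 130 to 295 CPM in WT and 0.173 to 9.59 CPM in KO22, fell by 5.69 (SE 0.51, adjusted p = 1.98e-05). *Igsf8* and *Ptgfrn*, which encode the main direct partners of CD9 and CD81, had log2 fold changes of 0.86 ± 0.15 and 0.93 ± 0.14 (adjusted p = 0.00104 and 0.000399), below the fold limit. They were chosen after their values were seen, because both tetraspanins they bind had passed the test. In KO26 against WT 0 of the 18 passed in edgeR, 1 passed the adjusted p alone in DESeq2, and 4 had an unadjusted p under 0.05.

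The genes of vesicle formation and release, from the ESCRT machinery to the syntenin pathway, were all 22 tested. In KO22 against WT 11 rose and 7 fell by the adjusted p alone, beside 26.9% and 26.1% of all genes, and 1 rose and 1 fell past both limits, beside 11.4% and 13.8%. The median was 0.38, and that of all genes -0.03. *Sdc1*, a syndecan that binds syntenin, was at 16.5 to 36.9 CPM in WT and 52.3 to 70.4 CPM in KO22 (1.38 ± 0.14, adjusted p = 5.05e-05). *Rab27b*, a GTPase of vesicle docking, was at 83.9 to 176 CPM in WT, 2.59 to 9.5 CPM in KO22 and 51.7 and 56.6 CPM in KO26. It fell in KO22 by 4.03 on the log2 scale (SE 0.43, adjusted p = 5.57e-05) and had -1.05 ± 0.41 in KO26 (adjusted p = 0.186). In KO26 against WT 0 of the 22 passed in edgeR and in DESeq2, and 5 had an unadjusted p under 0.05.

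Over the 9 mRPE libraries, the genes whose log2 CPM followed *Cd9* most closely were *Qrich1*, *Srr* and *Gm26728* (Pearson r 0.995, 0.993 and 0.993). Those nearest to *Cd81* were *Ebpl*, *Ube2h* and *Wnt9a* (0.995, 0.993 and 0.992), and those nearest to *Cd63* were *Cavin1*, *Lats1* and *Rps13* (0.981, 0.980 and 0.979). The libraries share lines and batches, so these are descriptions. With the batch removed, *Gm26728* (0.998) and *Qrich1* (0.996) stayed among the nearest of *Cd9*, while all 3 names changed for *Cd81* (*Grk3*, *Lrp6* and *Lims2*, 0.996 to 0.999) and for *Cd63* (*Fjx1*, *Zfp105* and *Spns1*, 0.981 to 0.984).

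In the RPE/choroid tissue the order of levels was another. *Cd81* came first at 19.0 ± 3.94 CPM per kb in WT (SD, n = 3), apart from *Cd9* at 10.8 ± 1.59, which overlapped *Cd63* at 8.68 ± 2.18. *Tspan3* (4.56), *Cd151* (3.80), *Tspan4* (2.49), *Cd82* (2.25), *Tspan9* (2.17) and *Tspan6* (1.69 CPM per kb) followed. *Cd37* was last at 0.316 ± 0.0418 CPM per kb, from 73 to 81 counts per WT library, and 8 of 10 leukocyte markers were in the table, summing to 62.0 to 71.1 CPM in WT and 67.1 to 71.0 CPM in the libraries labelled Prom1-KO. *Cd9* made up 17.9 to 21.4% of the members' CPM per kb in WT tissue and 21.0 to 25.5% in the libraries labelled Prom1-KO. Tissue and cell tables were scaled separately, and levels are not tested across them.

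The libraries labelled Prom1-KO were compared with WT to see the effect of *Prom1* deletion in the RPE in situ. None of the 10 members passed (0 higher and 0 lower under either limit in edgeR and in DESeq2). In DESeq2, 84 of all 24926 genes were higher and 189 lower under both limits. In edgeR, 0% of these genes were higher and 0.189% lower under both limits, with 0% and 0.193% by the adjusted p alone. The median log2 fold change was -0.08 for the members and 0.01 for all genes, and 1 member had an unadjusted p under 0.05. This was *Tspan3*, at 41.9, 27.9 and 41.4 CPM in WT and 25.4, 25.0 and 25.7 CPM in the libraries labelled Prom1-KO. The groups did not overlap, and the log2 difference was -0.55 ± 0.18 (adjusted p = 0.435 in the edgeR test). It stayed below 0 in every setting tried, from -0.71 to -0.45.

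*Cd9* was at 24.7, 24.9 and 19.0 CPM in WT and 24.2, 25.9 and 27.4 CPM in the libraries labelled Prom1-KO, which overlapped (0.18 ± 0.15, adjusted p = 0.814). *Cd81* was at 87.9, 68.5 and 58.7 CPM against 74.0, 78.8 and 62.2 CPM, with a log2 difference of 0.00 ± 0.18 (adjusted p = 1). The remaining 7 members had log2 differences from -0.34 (*Tspan9*, 11.0 to 15.8 CPM in WT and 7.73 to 12.9 CPM in the other group) to 0.13 (*Cd37*), with adjusted p from 0.765 to 0.983. The 21 other tetraspanins, the 21 partners and the 22 vesicle genes had 0 genes past the limits in edgeR, with 2, 4 and 2 at an unadjusted p under 0.05. In DESeq2 0, 1 and 0 genes passed the adjusted p alone.

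**Figure D5:**
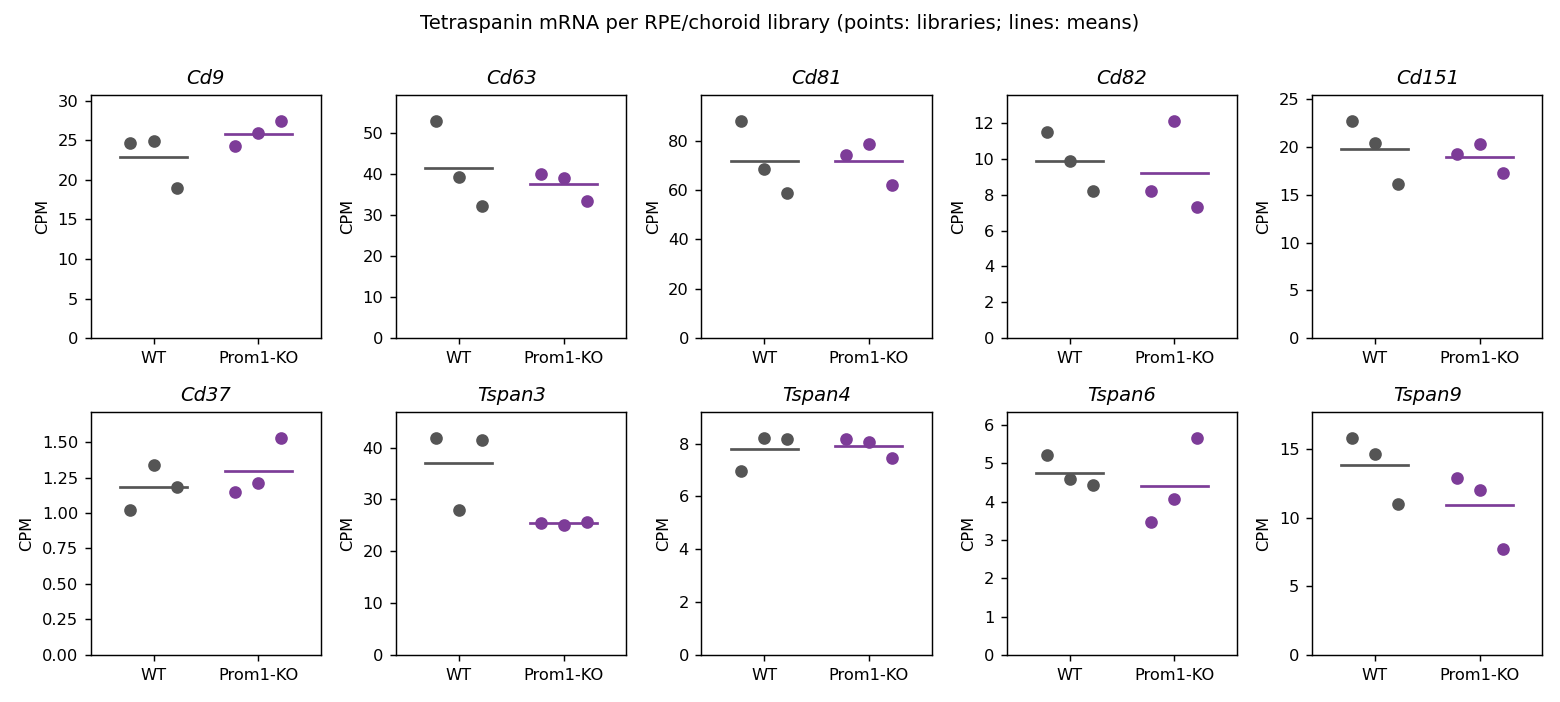
CPM (TMM scale, linear axis from 0) of the 10 tetraspanins in each RPE/choroid library labelled WT or Prom1-KO, with lines at the group means. The groups overlap for 9 members, and for *Tspan3* the libraries labelled Prom1-KO (25.0 to 25.7) lie below WT (27.9 to 41.9).

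The tissue groups differed in other ways. The 11 RPE markers summed to 1760 to 2690 CPM in WT and 394 to 554 CPM in the libraries labelled Prom1-KO. Of the 11, 4 were lower past both limits, and the median log2 difference was -2.07. *Ttr* and *Rgr* had the highest WT means, at 731 and 697 CPM, against 90.4 and 18.6 CPM in the other group. *Tyr* was the only marker with a higher mean there (77.5 CPM in WT and 96.2 CPM). *Pmel* (173 and 156 CPM) and *Best1* (1.43 and 1.23 CPM) differed little. The 8 photoreceptor markers ranged over 39.3 to 1110 CPM in WT and 20.3 to 547 CPM in the other group, and the 7 endothelial markers over 92.2 to 184 and 60.3 to 80.3 CPM. Their part in the tetraspanin values, *Tspan3* included, was not tested. Mitochondrial genes held 64.93 to 69.14% of the counts in WT and 71.04 to 84.17% in the other group, and the third library labelled Prom1-KO stood apart from its group at 84.17%. Without that library 0 members passed, and *Tspan3* differed by -0.57 (adjusted p = 0.449 in the edgeR test) on the log2 scale.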

How the data were processed

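RNA-seq was analysed in 9 mRPE and 6 RPE/choroid libraries, grouped by the cell line and genotype labels. Per the labels and the study's methods, the authors trimmed reads with Trim Galore (0.6.7), aligned them with STAR to mm39 and deposited raw counts per gene after removing genes with fewer than 5 counts in at least 3 samples. They also deposited normalized values (signal, scaled by DESeq2), which were not used here. The labels name an NEB stranded kit and the methods a TruSeq stranded kit, and the strand column counted is not given in the sources used here.

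Raw counts were tested with edgeR 4.0.16 (quasi-likelihood, TMM factors, keeping genes that reached 5 counts in 3 or more of the fitted libraries, Benjamini-Hochberg adjustment over all genes) in R 4.3.3, with sequencing batch as a term for mRPE. KO22 was compared with WT over 7 libraries, both KO26 comparisons used all 9, and tissue used 6. A gene was called past an adjusted p of 0.05 and an absolute log2 fold change of 1.2, the study's limits. CPM were computed on the TMM scale, and per-kb levels used the union of exons in GENCODE vM39 (GRCm39). Promoters were from RefSeq (GRCm38.p6). Alternatives were DESeq2 1.42.0, its size factors, other filters, limits and batch handling, and each library left out. The scripts were tested on simulated counts. In the text ± is the SE of a log2 value and the SD of a level. From each further list up to 4 called genes per direction and comparison, by smallest adjusted p, are named, and exceptions are stated. The members and lists were chosen with earlier results of these data known.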

Additional observations from a re-analysis of the deposited data

Results flagged for a closer look

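In the 4 WT mRPE libraries, 2 of the 9 members had 1 library far from the other 3 by Dixon's criterion, which chance meets in about 1 in 20 groups. These were *Cd63*, with 516 CPM in the WT library of batch 1 against 298 to 324 CPM in batch 2, and *Tspan3*, with 152 CPM in the same library against 120 to 125 CPM. The batch 1 library was also the highest WT library for *Cd9*, *Cd81*, *Cd151*, *Tspan6* and *Tspan9*, its log2 distance to the WT mean of batch 2 being 0.59, 0.30, 0.73, 0.17 and 0.48.

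The lines KO22 and KO26 differed in their log2 fold changes against WT, tested as the log2 difference of KO22 minus KO26 in the 9-library edgeR fit. This compares 2 lines, and the edit and other differences between them cannot be told apart. Of the members, *Cd9* (1.87), *Cd81* (-1.07), *Tspan9* (-0.77) and *Tspan6* (1.14) passed the adjusted p limit. For the lists, the genes named passed both the adjusted p limit and the fold limit of 1.2. By the adjusted p alone, 5 of 16 other tetraspanins, 7 of 18 partners and 7 of 22 vesicle genes were higher in KO22, and 2, 3 and 4 were lower, beside 16.3% and 18.1% of all genes. Of the other tetraspanins, *Tspan12* (2.64), *Tspan2* (2.49), *Tspan11* (1.86), *Cd53* (1.57) and *Tspan14* (1.56) were higher in KO22 and *Tspan18* (-5.71) and *Tspan13* (-5.49) lower. *Tspan13* rests on 2 counts in KO22. Of the partners, *Icam1* (4.93), *Itga6* (3.77), *Met* (2.40) and *Hbegf* (1.39) were higher and *Egfr* (-2.75) and *Cldn1* (-6.11) lower. Of the vesicle genes, *Rab27a* (-1.77) and *Rab27b* (-3.00) were lower past both limits. KO26 has 2 libraries, 1 in each batch.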

How the results depend on the processing

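The rise of *Cd9* in KO22 against WT kept its direction and its call in all 14 alternative fits (log2 1.92 to 2.08), and the drop of *Cd81* passed the adjusted p limit in all of them (-1.05 to -0.95). By the adjusted p alone, with no fold limit, the members that were higher were 3 in KO22 against WT, 1 in KO26 against WT and 2 in KO22 against KO26, and those that were lower were 2, 0 and 2. With a fold limit of 1, 2 members were higher and 1 lower in KO22 against KO26. In batch 2 alone 2 members were called higher in KO22 against WT and 2 against KO26, *Tspan6* being added to *Cd9*, and without a batch term 2 were called against KO26. Leaving out 1 library gave 1 to 2 members called higher in KO22 against WT (2 without the WT or the KO22 library of batch 1) and 1 to 2 against KO26 (2 without that KO22 library). Of 524 single-gene alternatives, 447 kept direction and side of the limit, 30 lost and 13 gained the adjusted p limit, and 34 changed sign, none of these passing the limit before. Sign changes in KO22 against WT, with batch 2 alone, were *Cd151* (0.17) and *Tspan4* (0.10), with ranges over left-out libraries of -0.38 to 0.17 and -0.19 to 0.11. In KO26 against WT they were *Cd9* (-0.14 in batch 2; -0.13 to 0.40), *Cd151* (-0.09 in batch 2; -0.23 to 0.94), *Cd63* (0.12 with no batch term; -0.34 to 0.20) and *Tspan6* (-0.39 to 0.31). In KO22 against KO26 they were *Cd82* (-0.42 to 0.05), *Cd151* (0.24 in batch 2; -1.08 to 0.09), *Tspan3* (-0.02 with no batch term, -0.07 with only these lines; -0.19 to 0.29) and *Cd63* (0.07 in batch 2; -0.53 to 0.02). In tissue they were *Cd82* (-0.34 to 0.03), *Cd37* (-0.02 to 0.22), *Cd151* (-0.18 to 0.06), *Tspan4* (-0.05 to 0.06), *Cd63* (-0.30 to 0.07) and *Tspan6* (-0.35 to 0.02). The cause was not tested. No tissue member was called in any fit, including one without mitochondrial genes that was chosen after seeing the data. With the length of the longest transcript, *Cd81* (147 CPM per kb) and *Cd63* (125) still led in WT and *Cd9* (119) in KO22. Below the leaders the order depended on the length. In WT *Tspan3* was then at 34.5 to 43.5 CPM per kb, above *Tspan4* at 23.2 to 28.3 CPM per kb. *Tspan6* and *Cd82*, at 5.57 to 20.5 CPM, had the fewest counts in mRPE. No paired analysis was possible because replicate numbers were given in accession order and pair no libraries.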

Other observations

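The junction before the Cys-Cys-Gly codons was looked at in each member and fell after the same position of the codon frame. *Cd9*, *Cd63* and *Cd81* each had a further Cys-Cys-Gly outside the large loop, at codons 76, 72 and 227, and each of these lay inside a single exon, with no junction in the 12 bases on either side.

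Among the promoters of the 10 members, 1 of *Tspan9* was richest in GC boxes (6 in 300 bases, 28 CG dinucleotides). The other *Tspan9* promoters held 0 to 1 GC boxes, and which start the cells use was not tested. *Tspan6* had the promoter poorest in G and C (38.3%).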
